A study of Mus musculus with 151 samples.

Results

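Among 50 inner hair cells of the adult mouse cochlea (P30_WT IHCs), the 25 cells with the largest share of counts from mitochondrial genes (the high-share group) were compared with the 25 cells with the smallest (the low-share group). The share is the sum of the counts of the 37 genes whose symbols start with "mt-" over all counts of the cell. The 50 cells are part of a series of 151, which also holds 55 P14_WT IHCs and 46 P14_iOHCs. Both of these groups were picked at postnatal day 14. The P14_WT IHCs came from mice with *Slc17a8*-iCreER and the Ai9 reporter. The P14_iOHCs came from such mice that also carried *Tbx2* flox/-, a null allele and an allele that tamoxifen deletes in IHCs. These iOHCs were picked for their smaller size. The measured share chose the groups, so the share and the levels of the mitochondrial genes are given as descriptions, and the nuclear genes were compared in CPM computed without the mitochondrial genes (counts scaled to 1000000 nuclear counts per cell).

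All 50 cells came from the cochlea of C57BL/6 mice at postnatal day 30 with the genotype vGlut3-P2A-iCreER/+; Ai9/+. In these mice, tamoxifen given in the first days after birth lets the Cre made from the *Slc17a8* (vGlut3) locus switch on the Tdtomato reporter in IHCs, and dissociated Tdtomato+ cells were picked by hand. Both groups share the genotype, the age and the treatment, each library holds 1 cell, and the number of mice is not given. Cells of unknown mice are not replicates of a condition. No test was therefore run, and levels are set beside their spread over cells. With 1 cell per library, less nuclear RNA and more mitochondrial RNA give the same share and cannot be told apart.

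The mitochondrial genome is a small circle that encodes 13 subunits of the respiratory chain and the ATP synthase, 2 ribosomal RNAs and 22 transfer RNAs. It is transcribed from both strands as long precursors, and most of its genes lie on 1 strand, with *mt-Nd6* as the protein-coding gene of the other. All other subunits of these complexes, the proteins of the mitochondrial ribosome and the factors that copy and transcribe the genome are made from nuclear genes and imported. IHCs are the cells that pass sound to the auditory nerve, at synapses that release glutamate without pause and need a steady supply of ATP. In single-cell data a high share of mitochondrial counts is often used to set aside damaged cells.

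The mitochondrial share was 8.39% to 37.6% in the high-share group, with a median of 11.3%. In the low-share group it was 4.51% to 7.80%, with a median of 6.55%. The means were 12.3 ± 5.57% and 6.39 ± 0.76% (SD, n = 25 cells each). The last cell of the high-share group was at 8.39% and the first of the low-share group at 7.80%, so the border ran through a continuous range. A single cell, numbered 23 in the labels, stood apart at 37.6%, while the next was at 14.8%. That cell had 6197 detected nuclear genes, the fewest of the 50, and the lowest *Tbx2*, *Myo6* and *Calb2* of the 50, at 5.28, 835 and 2017 CPM, beside 4666 CPM of *Otof*. Without it the mean of the high-share group was 11.2 ± 1.81%.

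The groups also differed in the size of their libraries. Total counts ran from 5692841 to 16678975 in the high-share group and from 9445755 to 25035444 in the low-share group, and the medians were 8154872 and 16288415. The totals of the 50 cells left a gap between 9484663 and 13282457, with 23 cells under it (the lower set) and 27 over it (the upper set). The lower set was the cells numbered up to 23 in the labels and the upper set those from 24 on. Whether the sets are batches is not stated in the labels. Of the high-share group 22 cells were in the lower set and 3 in the upper, and of the low-share group 1 was in the lower set and 24 in the upper. Group and set therefore went together in 46 of 50 cells, and over the 50 cells a difference by share and a difference by set cannot be told apart. For this reason the cells of each set were also split by their own share, 11 against 11 in the lower set and 13 against 13 in the upper. In these splits the median shares were 12.7% against 10.2% and 6.99% against 5.99%. A gap of this size is much smaller than that between the groups of 25.

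**Figure D1:**
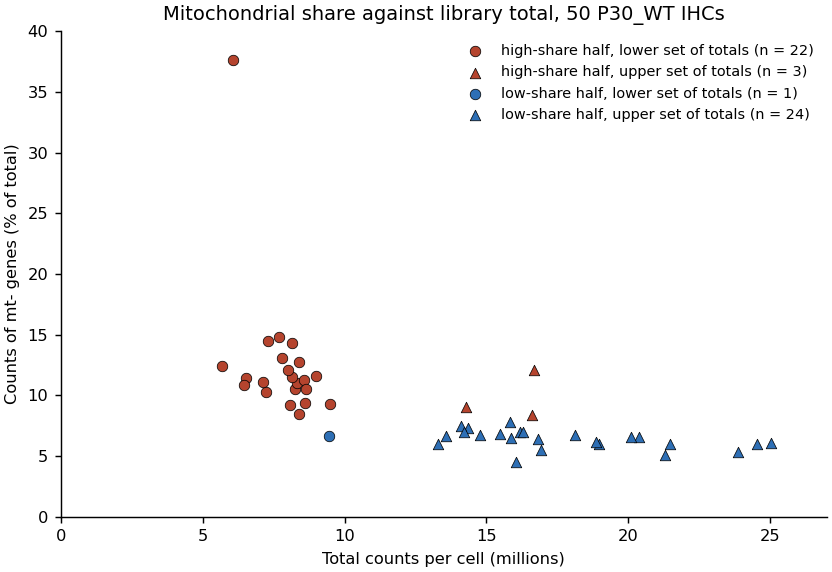
Share of mitochondrial counts (percent of all counts) against total counts, 1 point per P30_WT IHC; colour marks the group by share and shape the set of totals. The 23 cells of the lower set lie at 6.69% or above and 24 of the 27 cells of the upper set at 7.80% or below, and 1 cell of the lower set stands at 37.6%.

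Within each set the share was still larger in the smaller libraries. Spearman's correlation of share with total was -0.49 over the 23 cells of the lower set and -0.52 over the 27 of the upper, and share and total contain the same mitochondrial counts. The number of detected nuclear genes had a median of 8093 in the high-share group (6197 to 15119) and 8224 in the low-share group (7095 to 10187), and 8 cells of the high-share group lay outside the range of the low-share group. When the nuclear counts of each cell were thinned to 3788128, the smallest nuclear total, the medians were 7832 and 7585. In the upper set, cells with a larger share had fewer detected genes, with a correlation of -0.69 before and -0.61 after thinning. In the lower set correlation was 0.000988 and 0.13.

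The label of the cells was checked against their markers. *Otof*, which encodes the calcium sensor for transmitter release at the IHC synapse, was between 2377 and 7721 CPM in the high-share group and between 3170 and 7417 CPM in the low-share group. *Tbx2*, the transcription factor of IHC identity, and *Myo6* and *Myo7a*, the myosins of hair cells, had counts in all 50 cells. *Slc26a5*, the motor protein of OHCs, had at most 2 counts, in 2 cells of the high-share group. *Epyc*, a supporting cell gene, had none in any cell, and *Mbp*, the myelin protein, had at most 2 counts in 3 cells. Other markers were not absent. The supporting cell genes *Gjb2* and *Gjb6* had counts in 16 and 12 cells of the high-share group and 14 and 13 of the low-share group. The OHC markers *Ocm* and *Sri* had counts in 25 and 25, and in 22 and 23 cells. Of 6 OHC markers compared, 3 (50%) were past 2-fold higher, beside 8.35% of all genes. Their median log2 ratio was 0.90, and -0.17 and 0.72 within the sets. Both groups thus carried the IHC genes. Cells with *Xist* above 10 CPM and no Y-linked gene above it numbered 14 in the high-share group and 18 in the low-share group, and cells with the reverse numbered 10 and 5, so the groups differed in their make-up by sex.

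A second cell stood apart. The only cell of the lower set in the low-share group, number 11, had *Malat1*, a long RNA kept in the nucleus, at 6.01 CPM, while the other 49 cells were at 1104 CPM or above. Its *Otof* was at 3839 CPM, and its *Calb2*, which encodes the calcium buffer calretinin, at 27136 CPM, the highest of the 50 cells. *Fos*, *Egr1* and *Jun* were at 0.908, 1.59 and 1.02 CPM. For several results within the lower set the value without this cell or without cell 23 is given too.

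The counts of 17 of the 37 mitochondrial genes were not at 0 in every cell, and 20, all transfer RNA genes, had no count in any. *mt-Cytb*, *mt-Rnr2*, *mt-Nd1*, *mt-Co1* and *mt-Nd4* took the most, with a median of 77.9% of the mitochondrial counts in the high-share group and 80.8% in the low-share group. The CPM of mitochondrial genes was scaled to all counts of the cell. *mt-Cytb*, the cytochrome b of complex III, was at 16804 to 73480 CPM in the high-share group. In the low-share group it was at 11304 to 19409 CPM. *mt-Nd2*, a subunit of complex I, was at 5252 to 40540 in the high-share group and at 3318 to 8492 in the low-share group, and its medians of 11630 and 4187 were 2.78 times apart. The ratio of medians was 1.501 for *mt-Cytb*, 1.80 for *mt-Co1*, which encodes the catalytic core of complex IV, 2.00 for *mt-Nd4* and 2.13 for *mt-Rnr1*, the small ribosomal RNA. For *mt-Nd6* it was 0.96. It was 0.083 for *mt-Atp8* and 0.39 for *mt-Nd4l*, which had low medians of 0.48 and 5.80 CPM, and of 1.41 and 3.61 CPM. The share was thus not made up in the same way in the groups.

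The make-up followed the set of totals. *mt-Nd6* was 0.866% to 1.66% of the mitochondrial counts in the cells of the lower set, with a median of 1.11%, and 1.63% to 3.33% in those of the upper set, with a median of 2.16%. The ranges overlapped only from 1.63% to 1.66%. *mt-Nd2* was 8.74% to 13.1% in the lower set and 4.34% to 8.71% in the upper set, and the sets did not overlap. Between the cells with the higher and the lower share of 1 set these values lay close together: medians of *mt-Nd6* were 1.11% and 1.20% in the lower set and 2.26% and 2.03% in the upper, and those of *mt-Nd2* were 10.8% and 10.7%, and 6.56% and 6.76%. *mt-Nd6* is at chrM:13552-14070 (GRCm38) on the minus strand, facing *mt-Cytb* and *mt-Nd5*. Whether the counting used strand is not given, so its reads and those of the opposite transcript cannot be told apart.

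**Figure D2:**
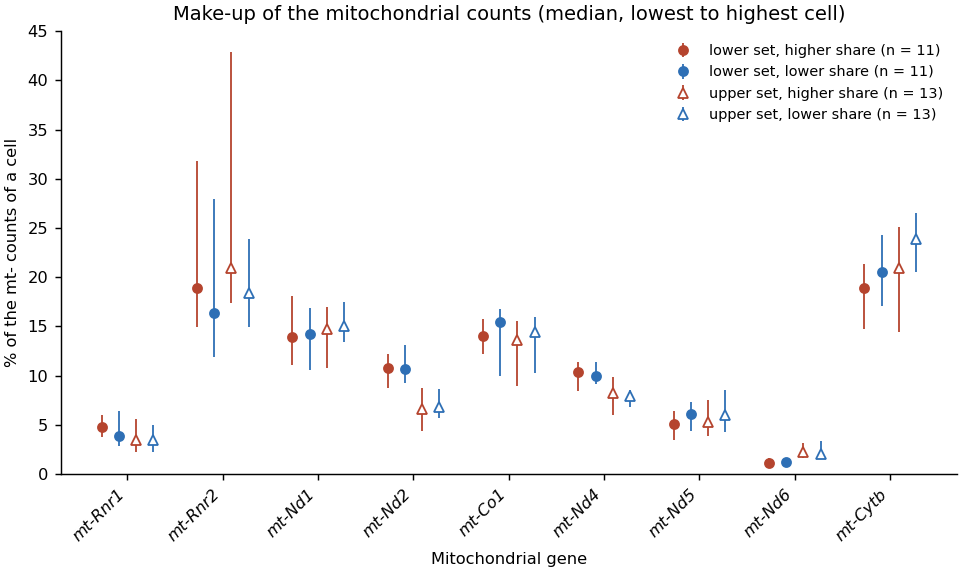
Percent of the mitochondrial counts of a cell that fell on each of 9 mitochondrial genes, as the median with a bar from the lowest to the highest cell, for the cells with the higher and the lower share in the lower set (11 cells each, filled circles) and in the upper set (13 cells each, open triangles). *mt-Nd2* and *mt-Nd6* differ between the sets, with median *mt-Nd2* near 10.7% in the lower and near 6.62% in the upper set, and little between the groups of a set.

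Of the protein-coding genes, *mt-Atp6*, *mt-Atp8*, *mt-Co2*, *mt-Co3*, *mt-Nd3* and *mt-Nd4l* together took only 0.239% to 0.859% of the mitochondrial counts of a cell, although they cover 2998 of the 11403 bases of the 13 genes. Copies of mitochondrial sequence also lie in the nuclear genome, and the annotation (GENCODE M21, GRCm38) lists copies of 5 of these 6 genes that are nearly the same. *Gm10925* matched *mt-Atp6*, *Gm28661* matched *mt-Co2*, *Gm28437* matched *mt-Co3* and *Gm10222* matched *mt-Nd4l*, each at 100% of the aligned bases. *Gm28438*, at chr1:24612775-24613119 on the minus strand, matched *mt-Nd3* over 345 bases with 1 mismatch, T3C counted from the 5′ end of the gene (*mt-Nd3* base first). The first 60 bases of this pair, at chrM:9459-9518 on the plus strand and chr1:24613060-24613119 on the minus strand, are shown with the differing base in capitals, since a read that misses this base is the same in both.
mt-Nd3: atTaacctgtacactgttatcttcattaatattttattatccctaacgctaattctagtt
Gm28438: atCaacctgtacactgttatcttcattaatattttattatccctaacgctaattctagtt
How reads with several alignments were treated is not given, and their part in these low counts was not tested. The values of the copies are therefore uncertain, though the rule counts them as nuclear genes.

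Most copies had higher means with a larger share. Reads counted for the copies can come from the mitochondrial genes that set the share, so these values are a description. *Gm28438* was at 10.7 to 177 CPM in the high-share group, with a median of 23.9, and at 5.88 to 67.8 CPM in the low-share group, with a median of 10.8. Its log2 ratio of means was 1.403 between the groups, 0.99 within the lower set (0.65 without cell 23) and 1.13 within the upper set, and its correlation with the share was 0.64 over 23 cells and 0.68 over 27. *Gm28439*, a copy of part of *mt-Nd4*, and *Gm28437* had log2 ratios of 1.18 and 1.54 within the lower set (1.01 and 0.67 without cell 23) and 0.71 and 0.51 within the upper. In cell 23, the cell with the largest share, the 11 listed copies summed to 28181 CPM, while no other cell exceeded 4241 CPM. Of the 10 copies compared, 3 were past 2-fold higher in the high-share group, and their median log2 ratio was 0.54, or 0.25 without that cell, and 0.0088 by the ratio of medians over cells. Within the lower set the median was 1.09, or 0.58 without it, and within the upper set 0.35. *Gm10925* turned from 1.37 to -0.41 within the lower set when the cell was left out.

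The genes compared were the 10154 nuclear genes that reached 5 counts in 10 or more cells, by the log2 ratio of mean CPM + 1. The mean was past 2-fold higher in the high-share group for 848 genes (8.35% of those compared) and past 2-fold lower for 747 (7.36%), and the median over all genes was -0.01. Mean and median were both past 2-fold higher for 340 genes (3.35%) and lower for 294 (2.9%). The share past 2-fold was larger among genes detected in few cells: of the genes with a count in 10 to 24 cells, 16.9% were past 2-fold higher and 15.2% lower, and of the 4422 genes with a count in 40 or more cells 3.05% and 2.44%. The split of smaller groups within a set gave more genes past 2-fold, 1521 higher (15%) and 1151 lower (11.3%) in the lower set, and 1137 (11.2%) and 1241 (12.2%) in the upper.

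The within-set splits use different cells and had little in common. In both, 272 genes (2.68%) were past 2-fold higher and 219 (2.16%) lower, while 460 (4.53%) were past 2-fold in opposite directions. The log2 ratios had the same sign in 51.8% of all genes, and in 53.7% of the 4422 genes detected in 40 or more cells. Across genes, which are not independent, the correlation between both sets of ratios was 0.04 and 0.11. The ratios of single genes by share thus had little in common between the sets.

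Genes of the immediate-early response, which neurons switch on within minutes of stimulation, stood out between the groups. *Fos* was at 0.750 to 4239 CPM in the high-share group, with a median of 1308, and at 0 to 946 CPM in the low-share group, with a median of 187.6. Its mean was 1301 ± 969 CPM against 264 ± 257 CPM (SD, n = 25 cells each), a log2 ratio of 2.30. The high-share group held 223922 counts of *Fos* (exact Poisson 95% interval 222995 to 224851) and the low-share group 116517 (115849 to 117188). These sums are not scaled to the totals, which were larger in the low-share group. The intervals cover the counting of reads only. Reads were counted without molecular identifiers and can be copies of 1 molecule, so the error in molecules can be larger. *Egr1* had medians of 1488 and 161.7 CPM and a log2 ratio of 2.52, with 0 as its lowest value in both groups. The partner of Fos in the AP-1 complex, *Jun*, had medians of 1502 and 634 CPM and a log2 ratio of 1.03. *Fosb*, *Junb*, *Ier2* and *Atf3* of the same list, named after their values were seen, were also past 2-fold, at 2.14, 1.54, 2.09 and 3.60. Of 15 genes of this list, 7 (46.7%) were past 2-fold higher, beside 8.35% of all genes compared, and 1 (6.67%), the nuclear receptor gene *Nr4a2*, lower, beside 7.36%, and the median log2 ratio was 0.77.

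Within the sets this difference was small or turned. Median *Fos* was 1599 and 921 CPM in the cells with the higher and the lower share of the lower set and 213 and 151 CPM in those of the upper. The log2 ratios of means were 0.66 and -0.20 for *Fos*, 0.63 and -0.22 for *Egr1*, and 0.16 and -0.80 for *Jun*. The list had medians of 0.11 and -0.20, with 6 of 15 and 10 of 15 genes below 0. Without cell 11 the median in the lower set was -0.02. Between the sets themselves, lower over upper, the log2 ratio of *Fos* was 2.42.

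*Ftl1*, which encodes the light chain of the iron store ferritin, showed the reverse. It was at 274 to 2034 CPM in the high-share group and at 748 to 2757 CPM in the low-share group, with medians of 636 and 1930, and the log2 ratio was -1.37. Within the sets the ratios were 0.08 and -0.01, with medians of 615 and 636 CPM in the lower set and 1930 and 1858 CPM in the upper. These cells did not overlap in *Ftl1*: the highest cell in the groups of the lower set was at 1000 CPM and the lowest in those of the upper at 1319 CPM. *Rn7s2*, a gene for the RNA of the signal recognition particle, had a median of 0.17 CPM in the high-share group and 54.96 in the low-share group, with log2 ratios of 0.03 and 0.24 within the sets. The P14 cells were cut into sets at the middle, on the log scale, of the gap found in the P30_WT IHCs. The totals next to this cut were 10267217 and 11814928 in P14_WT IHCs and 10088095 and 12291116 in P14_iOHCs. *Ftl1* was lower in the lower sets, with log2 ratios of -1.42 in P14_WT IHCs and -0.99 in P14_iOHCs. *Rn7s2* was lower too, at -4.72 and -3.73. For *Fos* these ratios were -0.89 and 0.01. In the P30_WT IHCs 772 genes (7.6%) were past 2-fold higher and 901 (8.87%) lower in the lower set than in the upper.

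**Figure D3:**
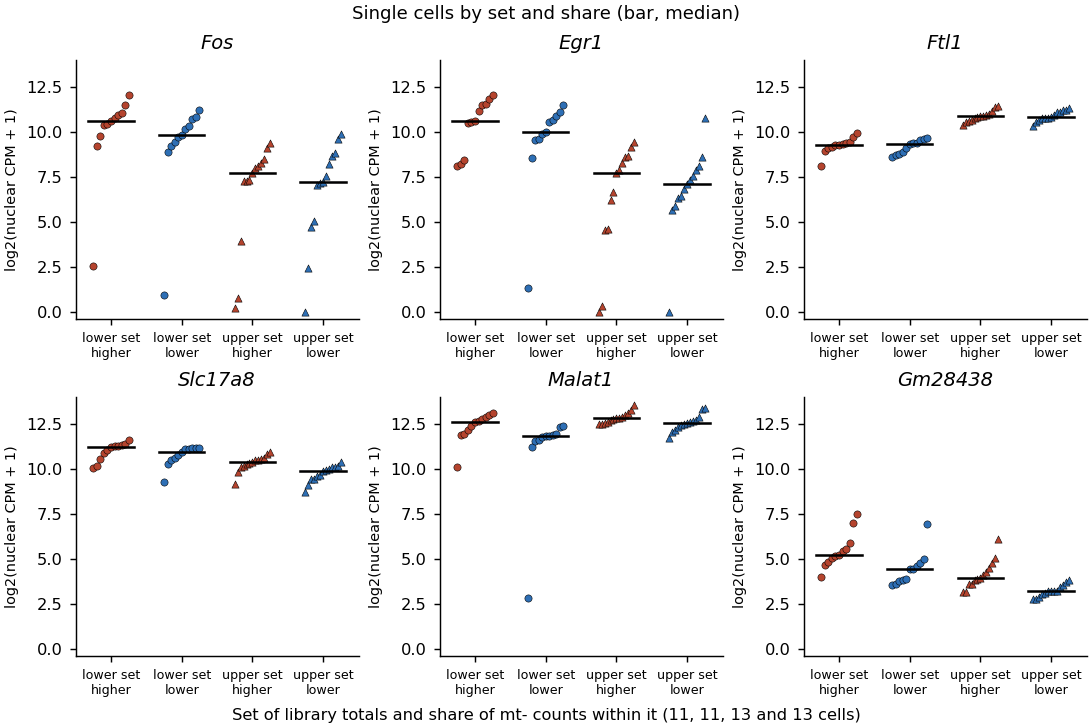
Log2(CPM + 1) of 6 genes in single P30_WT IHCs, split by set of totals and by higher or lower share within the set (11, 11, 13 and 13 cells, with the bar at the median). *Fos*, *Egr1* and *Ftl1* differ between the sets, with median *Ftl1* at 615 and 636 CPM in the lower and 1930 and 1858 CPM in the upper set; *Slc17a8*, *Malat1* and *Gm28438* have higher medians in the cells with the higher share in both sets.

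Several genes with large ratios were pseudogenes that copy a gene with no such ratio. *Gm8730*, which matches *Rplp0* at 98.7%, had a median of 0.35 CPM in the high-share group and 54.5 in the low-share group and a log2 ratio of -3.95, where *Rplp0* had 0.20. *Rpl3-ps1* and *Rpl34-ps1* had ratios of -2.85 and -3.02, where *Rpl3* and *Rpl34* had 0.02 and -0.19. *Gm12751* and *Trmt112-ps2*, which match *Polr1d* and *Trmt112* at 100%, had 3.04 and 2.07, where these genes had 0.16 and -0.42. Reads of such pairs can be split either way, so the ratios of the copies are uncertain. Within the sets the 5 copies lay between -0.35 and 0.69.

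The nuclear subunits of the respiratory chain and the ATP synthase were lower where the mitochondrial genes were higher. All 76 were compared, none was past 2-fold higher and 5 (6.58%) were past 2-fold lower, a share near the 7.36% of all genes compared, and 69 of 76 had a log2 ratio below 0, with a median of -0.35. Summed over the list, the cells of the high-share group were at 13341 to 32120 CPM, with a median of 24274, and those of the low-share group at 24897 to 40182, with a median of 29872. The medians were -0.30 for complex I, -0.18 for complexes II and III, -0.39 for complex IV and -0.37 for the ATP synthase. *Ndufb2*, an accessory subunit of complex I, was the lowest of those with a count in 40 or more cells at -1.71, with medians of 3.69 and 24.8 CPM. *Cox5a* of complex IV was at -0.86, with medians of 81.2 and 156 CPM, and *Sdha*, the catalytic subunit of complex II, at 0.37.

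This too was not seen within the sets. The 76 genes had a median log2 ratio of -0.07 in the lower set, with 45 below 0, and of 0.17 in the upper set, with 20 below 0. *Ndufb2* was at 0.75 and 0.06. In the upper set, 9 of 10 genes of complex IV and 12 of 16 of the ATP synthase were above 0, with medians of 0.21 and 0.31, and 6 of 13 of complexes II and III. The subunits of the mitochondrial ribosome had 5 of 77 genes past 2-fold lower (6.49%, near the same 7.36%) and none higher, and medians of -0.38 between the groups and -0.18 and -0.01 within the sets. Without cell 11 the medians in the lower set were 0.03 for the respiratory chain and ATP synthase and -0.03 for the mitochondrial ribosome. The proteins of the cytosolic ribosome had a median of -0.19 over 76 genes, and of -0.05 and 0.27 within the sets.

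Genes that copy, transcribe and process the mitochondrial genome showed no common direction. Of 23 compared, 3 (13.0%, beside 8.35% of all genes) were past 2-fold higher and none lower, and the median was 0.00. *Tfam*, which packages the genome and starts its transcription, had a count in 18 of 25 cells of the high-share group (72.0%, exact Clopper-Pearson 95% interval 50.6% to 87.9%) and 10 of 25 of the low-share group (40%, 21.1% to 61.3%). These intervals overlap, cover counting error only and take the cells as independent, which cells of the same mouse need not be. Its log2 ratio was 0.61, and -0.67 and -0.05 within the sets. *Polrmt*, the polymerase itself, had a count in 4 and 7 cells. *Ppargc1a*, a coactivator known to raise mitochondrial number, had a count in 5 of 25 cells and in 0 of 25, which allows a share of up to 12% when the limit is set at 3 cells of the total, and did not pass the filter. The regulators of mitochondrial biogenesis (11 genes) had a median of 0.05, import (25 genes) -0.20, dynamics and mitophagy (22 genes) 0.16 and the TCA cycle (17 genes) -0.10.

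Some genes went the same way in the groups of 25 and in both sets. Of all genes compared, 27.1% were above 0 in both sets and 24.8% below 0 in both. A shared direction alone therefore does not set a gene apart. *Slc17a8*, which encodes the transporter that loads synaptic vesicles with glutamate and whose locus drives the Cre, was at 1050 to 3133 CPM in the high-share group, with a median of 2044. In the low-share group it was at 411 to 1961 CPM, with a median of 1076. The log2 ratio was 0.83, and 0.24 and 0.59 within the sets, with medians of 2358 and 1916 CPM in the lower set and 1354 and 957 CPM in the upper. Without cell 11 the ratio in the lower set was 0.15. Its correlation with the share was 0.41 and 0.53. The other synapse genes did not share this: the 18 compared had a median of 0.04, with *Otof* at -0.14 and *Cabp1*, a calmodulin-like regulator of calcium channels, at -0.73. *H4c3*, a histone H4 gene, had medians of 99.3 and 0.06 CPM and log2 ratios of 3.54, 2.98 and 2.23.

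The 10 highest and 10 lowest ratios were taken among genes past 2-fold by mean and median, with a count in at least 20 cells of the group with the higher level and with 1 direction among the cells of these groups in each set (22 against 1 and 3 against 24). Of these 20 genes 5 were annotated as processed pseudogenes. *Gm1113* had medians of 236 and 0 CPM and a log2 ratio of 4.48, and 0.25 and 6.85 within the sets. In the lower set its medians went the other way, at 236 CPM in the cells with the higher share and 409 in the others, with 1 cell at 2566 CPM, and the ratio was 0.11 without cell 11. *Cubn*, which encodes the endocytic receptor cubilin, had medians of 76.9 and 0 CPM and ratios of 3.30, 0.67 and 3.41, though in the lower set its median was 0.48 CPM with the higher share and 91.3 CPM with the lower. *Xpo4*, a nuclear transport receptor, was at 2.12, 1.28 and 1.68, and *Col27a1*, a fibrillar collagen, at 2.42, 1.04 (0.46 without cell 23) and 1.32. In the other direction *Smad7*, an inhibitor of TGF-beta signalling, had medians of 0.066 and 18.1 CPM and a ratio of -2.28, and -1.21 within the upper set. *Sntg2*, a syntrophin, had medians of 0 and 159 CPM and a ratio of -2.32, and -0.67 within the upper set. Within the lower set the ratios of *Smad7* and *Sntg2*, -1.31 and -0.84, rested on cell 11, where they were at 99.05 and 470.4 CPM, and without it they turned to 0.72 and 3.56. *Sntg2* then had a count in 2 of 10 cells with the lower share. For each of these 6 genes the highest cell of the group with the lower level exceeded the median of the other group.

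Spearman's correlation with the share was computed within each set for genes detected in 40 or more cells, and the genes named here were chosen for it, so the values are a description. *Son*, which encodes a protein of nuclear speckles, had a correlation of 0.58 over 23 cells and 0.80 over 27, with log2 ratios of 0.33 and 0.65. *Lars2*, the leucyl-tRNA synthetase of mitochondria, had 0.58 and 0.65, with ratios of 0.55 (0.24 without cell 23) and 0.28, and its longest transcript had no match to a mitochondrial gene. On the negative side *Rab18*, a small GTPase of lipid droplets and the endoplasmic reticulum, had -0.64 and -0.60, with ratios of -1.27 and -1.003. *Arpc4*, of the Arp2/3 complex that branches actin, and *Cct7*, of the chaperonin that folds actin and tubulin, had -0.54 and -0.54, and -0.56 and -0.56. Between the groups of 25 these 5 genes lay between -0.03 and 0.22.

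*Malat1*, the most abundant in the list of RNAs held in the nucleus, was higher with the larger share within the sets and not between the groups. It had medians of 4595 and 6151 CPM in the groups, a log2 ratio of -0.25. In the lower set its medians were 6224 CPM in the cells with the higher share and 3595 in the others, and in the upper set 7119 and 5882. The log2 ratios were 0.75 and 0.26, and 0.61 in the lower set without cell 11, and the correlation with the share was 0.57 in each set. *Kcnq1ot1*, an antisense RNA of an imprinted domain, had 1.03 and 0.64. The 7 genes of this list compared had medians of 0.75 and 0.29, with 2 of 7 below 0 in each set. *Neat1*, the RNA of paraspeckles, was at -2.11 and -0.84, with its highest cell at 1204 CPM and medians between 0 and 0.20 CPM in the groups of the sets. *Rn7sk*, the RNA that holds back transcription elongation, was singled out after its values were seen, with log2 ratios of 3.15 and 2.36, though medians of only 51.5 and 9.11 CPM, and of 137 and 74.8 CPM, lay under them.

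The list of glycolysis had a median below 0 between the groups of 25 and within both sets, though at 1.59 in the 22 against 1 cells. The lists of import, the mitochondrial ribosome, antioxidant enzymes, complexes II and III and supporting cells were below 0 there too. Within the upper set these were at -0.05, -0.01, -0.09, -0.09 and -0.10. The 14 glycolysis genes compared had a median log2 ratio of -0.42 between the groups, -0.45 within the lower set and -0.47 within the upper set. Of these, 11 and 12 were below 0 within the sets and 9 (64.3%) in both, beside 24.8% of all genes compared. *Gapdh* was at -0.82 between the groups and *Tpi1*, which interconverts the triose phosphates, at -1.36. *Pkm*, the last enzyme of the pathway, was at 0.24 between the groups but at -0.49 and -0.47 within the sets, with medians of 449 and 805 CPM in the lower set and 435 and 639 CPM in the upper. Between the groups of 25 only 8 of 14 were below 0, with 3 past 2-fold lower and 1 higher, the lactate dehydrogenase gene *Ldha* at 1.64, which had a count in 15 and 8 cells. Members that did not pass the filter were *Slc2a3*, *Hk2*, *Pfkp*, *Aldoc* and *Eno2*. They had counts in 5, 9, 10, 8 and 5 cells of the high-share group and 0, 4, 4, 7 and 0 of the low-share group.

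**Figure D4:**
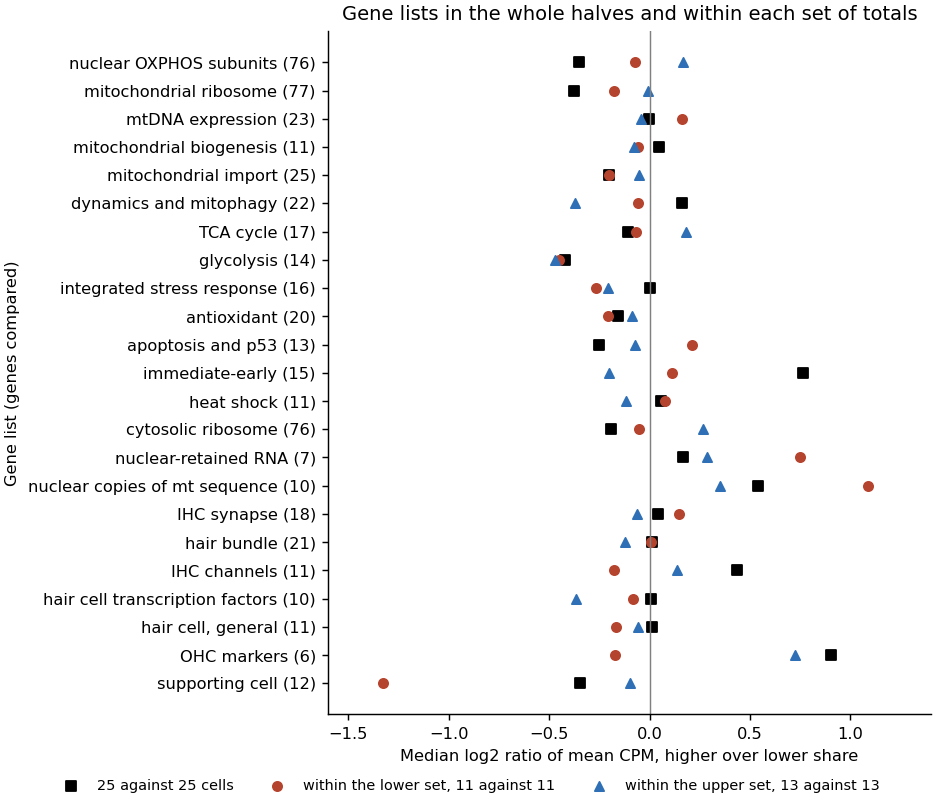
Median log2 ratio of mean CPM + 1, higher over lower share, for 23 gene lists with the number of genes compared in brackets: squares for the 25 against 25 cells, circles within the lower set (11 against 11) and triangles within the upper set (13 against 13). Nuclear OXPHOS subunits and immediate-early genes leave 0 in the groups of 25, at -0.35 and 0.77, but lie near 0 or turn within the sets, whereas glycolysis stays between -0.42 and -0.47.

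Other hair cell genes showed no common direction. *Calb2* was at 2017 to 20931 CPM in the high-share group and at 10170 to 27136 CPM in the low-share group, with medians of 12756 and 17554 and a log2 ratio of -0.54, and -0.14 and -0.31 within the sets, but 0.05 in the lower set without cell 11. *Pvalb*, the calcium buffer parvalbumin, was at -0.91, and -0.60 and -0.55 within the sets. In the lower set its medians went the other way, at 466 CPM in the cells with the higher share and 348 in the others, of which 1 was at 3046 CPM. *Ocm*, which encodes oncomodulin, a calcium buffer best known from OHCs, had medians of 1223 and 91.1 CPM and a log2 ratio of 1.87, but -0.52 and 1.39 within the sets. Genes of the hair bundle had a median of 0.01 over 21 genes and transcription factors of hair cells 0.01 over 10. *Tbx2* was at 0.05, with medians of 208 and 177 CPM. *Chrna9* and *Chrna10*, which encode the subunits of the acetylcholine receptor of efferent synapses, and *P2rx2*, which encodes an ATP receptor, were past 2-fold higher in the high-share group, at 1.38, 2.66 and 1.09, and were named after their values were seen. *Chrna10* had a count in 11 cells of the high-share group and 4 of the low-share group, and within the sets its ratios were -2.38 (-3.97 without cell 23) and -3.02. *Chrna9* and *P2rx2* also turned within the lower set, to -0.51 and -2.54. Of the 11 channel genes compared, 4 (36.4%) were past 2-fold higher between the groups, beside 8.35% of all genes. This list had a median of 0.44, and -0.18 and 0.14 within the sets.

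Lists of stress had medians near 0 or below it between the groups. The integrated stress response had a median of 0.00 over 16 genes and 1 gene past 2-fold in each direction, but -0.27 and -0.21 within the sets, with 10 and 11 of 16 genes below 0. Between the groups heat shock was at 0.06 over 11 genes, antioxidant enzymes -0.16 over 20 and apoptosis -0.25 over 13. *Hspa5*, the chaperone of the endoplasmic reticulum, had medians of 2216 and 1117 CPM and a log2 ratio of 0.93, but -0.41 and -0.03 within the sets. *Gsr*, which keeps glutathione reduced, was at 1.25, and 0.25 (0.11 without cell 11) and 0.12.

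Markers of neighbouring cells were present in part of the cells. The supporting cell list summed to 2643 to 14432 CPM in the high-share group, with a median of 8774, and to 5366 to 14511 CPM in the low-share group, with a median of 8574, and *Fbxo2* and *S100a1*, with counts in all 50 cells, made up most of it. *Gjb2*, the gap junction gene of supporting cells, had a count in 16 and 14 cells. The 12 genes compared had a median log2 ratio of -0.35 between the groups, -1.33 within the lower set and -0.10 within the upper. Their part in the results was not tested. The glia list summed to a median of 22.7 CPM in the high-share group and 0.087 CPM in the low-share group, nearly all of it *Cnp*, and no immune gene passed the filter.

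The P14 cells, which the rule did not use, were split by share in the same way, with sets cut at the middle of the P30_WT gap. In P14_WT IHCs the lower set was the cells numbered up to 16 in the labels and the upper set those from 17 on. The sets thus followed the order of the labels there, as in the P30_WT IHCs. In P14_iOHCs the numbers in the labels ran up to 18 in the lower set and from 6 in the upper, so they were mixed. Median shares were 7.50% in the 16 cells of the lower set and 4.91% in the 39 of the upper set of P14_WT IHCs. They were 5.40% in 12 and 6.22% in 34 cells of P14_iOHCs, from mice given tamoxifen to delete *Tbx2* in IHCs. The larger share in the lower set was thus not seen in P14_iOHCs. Within the upper sets, groups of 19 P14_WT IHCs had 781 genes past 2-fold higher (7.69%) and 658 lower (6.48%). The nuclear copies of mitochondrial sequence were above 0 in 10 of 10 genes in the P14_WT IHCs and in the P14_iOHCs, with medians of 0.71 and 0.97. Their reads can be those of the mitochondrial genes that set the share here too, so this is a description and no separate support. Glycolysis was at -0.33 and -0.36, with 10 and 11 of 14 genes below 0, and *Malat1* at 0.64 in the P14_WT IHCs. Other lists were as low: the TCA cycle was at -0.35 and -0.25, with 13 and 12 of 17 genes below 0. The integrated stress response was at -0.32 and -0.30, with 11 and 10 of 16 below 0. Supporting cell genes were at -1.14 and -0.85, with 12 and 11 of 12 below 0. Immediate-early genes were at 0.26 in P14_WT IHCs and at -0.93 in P14_iOHCs, and nuclear OXPHOS subunits at 0.07 and 0.29, with all 10 genes of complex IV above 0 in both.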

How the data were processed

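Single Tdtomato+ hair cells were sequenced with Smart-Seq HT. The authors deposited raw counts per gene for each cell, made per the submitters' processing notes with HISAT2 2.1.0 and HTSeq 0.10.0 on GRCm38 (mm10). The annotation release, the strand setting and the treatment of multi-mapping reads are not given in the sources used here. The table holds 55291 genes, 37 of them mitochondrial, and no 2 of the 50 columns were identical in 1225 pairs.

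The 50 P30_WT IHCs were ranked by mitochondrial share and split into 25 and 25 cells. CPM of nuclear genes was computed over nuclear counts, and CPM of mitochondrial genes over all counts. Genes that reached 5 counts in 10 or more cells were compared by the log2 ratio of mean CPM + 1 (a pseudocount of 1, which understates ratios of low genes), with 2-fold as the limit. Sets of totals were split at the largest gap between log totals of the P30_WT IHCs, and the P14 cells at the middle of that gap. No test was run, since cells are not replicates, and exact intervals cover counting error only. Total counts per cell ran from 5692841 to 25035444. Named genes were the mitochondrial genes, the 10 highest and 10 lowest ratios among genes past 2-fold by mean and median, with a count in at least 20 cells of the group with the higher level and 1 direction among the cells of the groups in each set, the highest and lowest member of each gene list with a count in at least 40 cells, a fixed set of IHC, stress and neighbouring cell genes, and the 5 highest and 5 lowest correlations with the share. Other genes were chosen after their values were seen. The groups and the gene lists were chosen with earlier results of these data known.

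Of the 10154 genes compared, 9980 matched GENCODE M21 (GRCm38) by symbol, which gave positions, biotypes and sequences, and copies were aligned with blastn. Python 3.11.15 with numpy 2.4.6, pandas 2.3.3 and matplotlib 3.10.9 was used, and R 4.3.3 with edgeR 4.0.16 and DESeq2 1.42.0 for the alternative size factors. The steps were tested on simulated counts. Alternatives were other scalings, filters, pseudocounts, summaries, depths, shares and sets of cells.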

Additional observations from a re-analysis of the deposited data

How the results depend on the processing

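No paired analysis was possible because both groups of cells lie within 1 group of single cells and no test was run. With edgeR's TMM factors, DESeq2's size factors, CPM over all counts, summed counts, mean log2 values, thinned counts, a pseudocount of 0.1, the 17 highest against the 17 lowest cells, the share of the 13 protein-coding genes alone, without cell 23 or without cell 11, no list median moved beyond its spread and the counts past 2-fold stayed within 1.5 times of 848 higher and 747 lower. With no filter there were 2727 higher and 2464 lower and the OHC markers were at 0.0122. When 5 counts were asked for in 25 cells there were 294 and 238. A pseudocount of 10 gave 339 and 208. The ratio of medians gave 1291 and 1265, with 0.0088 for nuclear copies of mitochondrial sequence and 0.0878 for OHC markers. Over all results and alternatives, 2406 values stayed, 262 moved and 85 turned; the cause was not tested. The alternatives without cell 23, without cell 11 and within 1 set alone were chosen after the data were seen.

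With cells split by share within each set of totals and pooled over both sets, the list medians that moved were 0.14 for complex IV, 0.16 for the ATP synthase, -0.0176 for immediate-early genes, 0.16 for the cytosolic ribosome, -0.19 for channels and 0.0985 for all OXPHOS subunits. The log2 ratios that turned were -0.33 for *Etl4*, 0.24 for *Rn7s2*, 0.39 for *Rps18-ps5*, 0.28 for *Rrbp1*, 0.57 for *Bloc1s1*, 0.19 for *Rpl19-ps7*, 0.20 for *Ndufb2*, 0.94 for *Diablo*, -0.14 for *Rpsa*, 0.75 for *Rpl23a*, -0.0733 for *Ocm*, -0.15 for *Jun*, -1.82 for *Neat1* and 0.006 for *Ftl1*.

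In the 11 against 11 cells of the lower set, there were 1521 genes past 2-fold higher and 1151 genes past 2-fold lower. The list medians that moved were 0.0168 for complex IV, 0.21 for apoptosis, 1.09 for nuclear copies of mitochondrial sequence, -0.18 for channels, -0.17 for OHC markers and -1.33 for supporting cell genes. The log2 ratios that turned were -0.74 for *Etl4*, 0.031 for *Rn7s2*, 0.17 for *Usp50*, 0.55 for *Rps18-ps5*, 0.0547 for *Rpl19-ps7*, 0.75 for *Ndufb2*, 0.50 for *Diablo*, -0.39 for *Rpsa*, 0.0877 for *Rpl23a*, -0.0041 for *Atp2b2*, -0.52 for *Ocm*, -2.11 for *Neat1* and 0.0766 for *Ftl1*.

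Within the lower set without cell 11, 11 against 10, there were 1501 genes past 2-fold higher and 1212 genes past 2-fold lower. The list medians that moved were 0.12 for complex IV, -0.0043 for the ATP synthase, 0.29 for apoptosis, -0.0168 for immediate-early genes, -0.23 for channels, -0.20 for OHC markers, -1.46 for supporting cell genes and 0.0314 for all OXPHOS subunits. Ratios that turned were -0.87 for *Etl4*, -0.0115 for *Trmt112-ps2*, 0.0495 for *Rn7s2*, 0.19 for *Usp50*, 3.56 for *Sntg2*, 0.69 for *Rps18-ps5*, 0.72 for *Smad7*, 0.0813 for *Rpl19-ps7*, 0.64 for *Ndufb2*, 0.37 for *Diablo*, -0.39 for *Rpsa*, 0.014 for *Rpl23a*, -0.14 for *Atp2b2*, -0.66 for *Ocm*, -2.25 for *Neat1* and 0.11 for *Ftl1*.

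Within the lower set without cell 23, 10 against 11, there were 1456 genes past 2-fold higher and 1197 genes past 2-fold lower. The list medians that moved were 0.0971 for complex IV, -0.0865 for the ATP synthase, -0.22 for channels and -0.077 for OHC markers. Ratios that turned were -0.61 for *Etl4*, -0.0097 for *Dner*, 0.0653 for *Rn7s2*, 0.21 for *Usp50*, 0.65 for *Rps18-ps5*, 0.0761 for *Rpl19-ps7*, 0.88 for *Ndufb2*, 0.52 for *Diablo*, -0.34 for *Rpsa*, 0.18 for *Rpl23a*, -0.41 for *Gm10925*, -0.47 for *Ocm*, -1.98 for *Neat1*, -0.024 for *Gm24270* and 0.16 for *Ftl1*.

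In the 13 against 13 cells of the upper set, there were 1241 genes past 2-fold lower. The list medians that moved were 0.14 for complex I, 0.21 for complex IV, 0.31 for the ATP synthase, -0.20 for immediate-early genes, 0.27 for the cytosolic ribosome and 0.17 for all OXPHOS subunits. The log2 ratios that turned were 0.24 for *Rn7s2*, 0.36 for *Rps18-ps5*, 0.46 for *Rrbp1*, 0.68 for *Bloc1s1*, 0.22 for *Rpl19-ps7*, 0.0572 for *Ndufb2*, 1.16 for *Diablo*, -0.22 for *Egr1*, 0.86 for *Rpl23a*, -0.20 for *Fos*, -0.80 for *Jun*, -0.84 for *Neat1* and -0.16 for *Gm24270*.

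With the cells of the lower set in the groups of 25, 22 against 1, there were 6397 genes past 2-fold higher and 1315 genes past 2-fold lower. The list medians that moved were -0.76 for complex IV, -0.72 for the ATP synthase, 3.11 for expression of the mitochondrial genome, 4.20 for regulators of biogenesis, -0.81 for import, 1.59 for glycolysis, 3.82 for the integrated stress response, 3.87 for apoptosis, 6.27 for immediate-early genes, 1.86 for heat shock, 6.14 for nuclear-retained RNAs, 1.83 for nuclear copies of mitochondrial sequence, 0.69 for the synapse, 1.14 for the hair bundle, 4.65 for channels, 2.44 for hair cell transcription factors, 4.95 for OHC markers and 3.86 for supporting cell genes. The log2 ratios that turned were 2.99 for *Ndufb2*, 3.18 for *Mrps34*, 4.30 for *Diablo*, -0.16 for *Rpsa*, 1.12 for *Rpl23a*, -0.44 for *Gm24270* and 0.20 for *Gm8730*.

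With the cells of the upper set in the groups of 25, 3 against 24, there were 1539 genes past 2-fold higher and 3454 genes past 2-fold lower. The list medians that moved were 0.20 for complex IV, 0.0268 for the ATP synthase, -0.38 for dynamics and mitophagy, -0.78 for the integrated stress response, -0.95 for antioxidant enzymes, -1.40 for immediate-early genes, -0.94 for heat shock, 0.14 for the cytosolic ribosome, -0.34 for channels, 0.13 for OHC markers, -3.25 for supporting cell genes and 0.0146 for all OXPHOS subunits. The log2 ratios that turned were -0.95 for *Gsr*, -1.40 for *Egr1*, -0.27 for *Rpsa*, -0.50 for *Gm10925*, -0.91 for *Fos*, -1.15 for *Jun* and -3.34 for *Neat1*.

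The 22 against 1 comparison rests on cell 11. No cell was traced to a mouse, and the sets of totals cannot be told apart from the groups of share. A floor of 3 counts was worth 0.197 to 0.792 CPM in the high-share group and 0.128 to 0.340 CPM in the low-share group, so genes near these levels may be missed in either.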
